A study of Mus musculus with 2 samples.

Results

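Cathepsins and cystatins are the proteases of the lysosome and the inhibitors that hold some of them in check, and their transcripts were measured in the whole uterus of 2 C57BL/6 mice on day 4 of pregnancy. Members were taken by gene symbol: 34 of the 22740 genes in the deposited table, of which 22 were cathepsins and 12 cystatins. Each mouse gave 1 library, titled WT, and the 2 libraries, called uterus 1 and uterus 2 as their titles are numbered, form the only group, so there is no treated, mutant or non-pregnant comparison. The age of the animals, and whether embryos were flushed from the uterus, are not given in the sources used here. Values are the authors' RPKM, that is, reads scaled to transcript length and to library size, so levels of different genes can be set side by side.

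Cathepsins are made as inactive proenzymes, carried to the lysosome by sorting receptors and activated there at low pH. Most are cysteine proteases, whereas cathepsins D and E are aspartic proteases and cathepsins A and G are serine proteases. Cystatins are small proteins that plug the active site of cysteine cathepsins. Type 1 cystatins (stefins) lack a signal peptide and stay inside the cell, and type 2 cystatins are made with a signal peptide. In the mouse, cysteine cathepsins and cystatin C have been studied at the implantation site, where proteolysis by invading trophoblast meets inhibitors made by the maternal tissue. A further set of mouse cathepsin genes on chromosome 13 is known for expression in the placenta.

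Reads recovered from the deposited values summed to 3784917 in uterus 1 and 4206869 in uterus 2, with a median of 116 and 128 reads per gene at 1 RPKM or more. This is shallow, so low members rest on few reads. The 6 uterine markers were all detected, among them Hoxa10, Esr1 and Hoxa11 at 113.8, 103 and 74.4 RPKM on average. So were all 6 markers each of epithelium and stroma and 5 of 5 of smooth muscle. Intervals and limits cover counting error only. They treat each read as a separate molecule, which copies made by PCR are not, so intervals may be too narrow and p-values too small.

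At 1 RPKM or more in both uteri, 13 of the 22 cathepsins and 3 of the 12 cystatins were detected. A further 3 members (Cts8, Csta and Cst6) had exactly 1 read in each uterus, and the other 15 were listed at 0 in both, which in this table need not be a count of 0. The 10 cysteine cathepsins outside the placental set were all detected, as were both aspartic cathepsins and 1 of 2 serine cathepsins. Summed RPKM was 1776 in uterus 1 and 1974 in uterus 2 for cathepsins, and 199 and 226 for cystatins, so both sums were higher in uterus 2. Cathepsin transcripts were thus 8.93 times cystatin transcripts in uterus 1 and 8.73 times in uterus 2. That ratio counts enzymes that cystatins do not inhibit. For cysteine cathepsins alone it was 2.44 and 2.41. Neither ratio counts inhibitors outside the cystatins. Among these is Ctla2a, described below, whose 1365 and 1629 RPKM exceeded the summed 485 and 546 RPKM of the cysteine cathepsins outside the placental set. The cystatin sum also pools secreted and intracellular inhibitors.

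The aspartic protease Ctsd (NM_009983, chromosome 7, 149561821 to 149573775 on mm9), the main aspartic endopeptidase of the lysosome, stood far above the rest. Its values were 1258 and 1385 RPKM, or 1321 ± 89.8 RPKM (SD, n = 2), and ranked 21 among all 22740 genes. Ctsd alone made up 70.8% of cathepsin RPKM in uterus 1 and 70.2% in uterus 2. Without it the summed cathepsin level was 553 RPKM on average, and the cathepsin to cystatin ratio was 2.60. The other aspartic member, Ctse, an endosomal enzyme known from the stomach and from immune cells, was close to the bottom of the detected range at 2.58 and 4.88 RPKM on 21 and 44 reads. Ctsd was therefore 487 and 284 times Ctse in RPKM.

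Cst3 (NM_009976, chromosome 2, 148697468 to 148701204), which encodes the secreted inhibitor cystatin C, was second among members at 157 and 174 RPKM (165 ± 12.3, SD, n = 2). It held 78.8% and 77.0% of cystatin RPKM. Ctsb (NM_007798, chromosome 14, 63741299 to 63764760), a cysteine protease that cuts both inside proteins and at their carboxyl end, followed at 141 and 162 RPKM (152 ± 15.1, SD, n = 2). The ranges of Cst3 and Ctsb over the 2 uteri overlapped, although Cst3 was higher than Ctsb in each uterus. Whether that order holds beyond these 2 animals was not tested. Ctsl (NM_009984, chromosome 13, 64464522 to 64471614), a strong cysteine endopeptidase, lay at 90.1 and 93.2 RPKM. Ctsz, a carboxypeptidase also called cathepsin X, lay at 75.1 and 77.4 RPKM. These 2 did not overlap with each other or with Ctsb. Ctsd, Ctsb, Ctsl and Ctsz together held 88.1% and 87.0% of cathepsin RPKM.

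**Figure D1:**
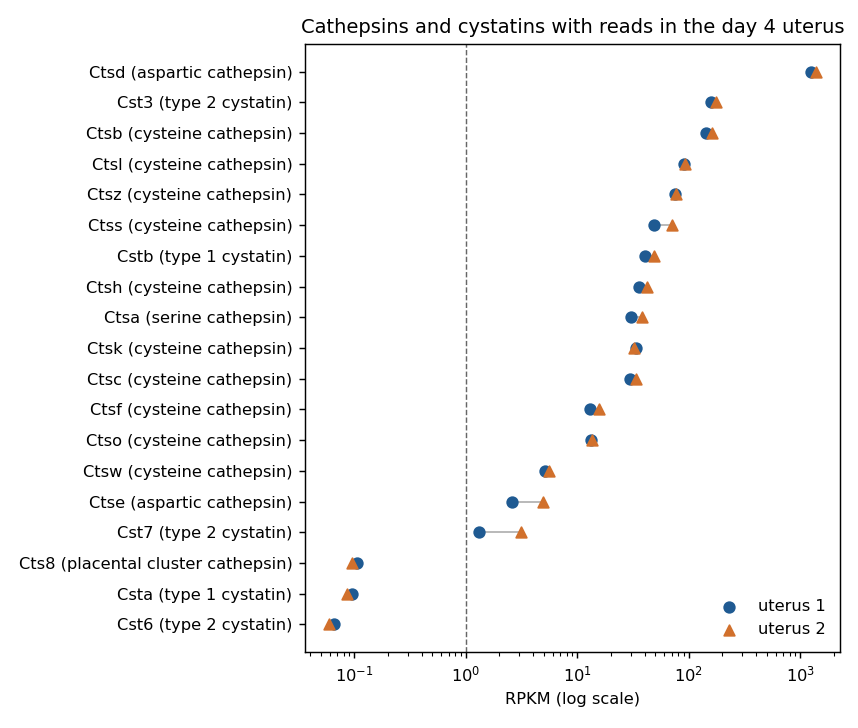
RPKM of the 19 members with reads (log axis), uterus 1 as circles and uterus 2 as triangles, with a grey line joining the 2 animals and a dashed line at 1 RPKM. Ctsd stands at 1258 and 1385 RPKM, 15 members lie between 1.32 and 174 RPKM, and the 3 members at the bottom rest on 1 read in each uterus.

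Promoter sequences are shown because the members split into genes at clear levels and genes at or near 0, and base composition before the start differs between these. RefSeq promoters (GRCm38.p6, 250 bases before to 50 bases after an annotated start) matched 26 of the 34 members by symbol. Those of Ctsb, Ctsh, Ctse, Ctsw, Cst6, Cst11, Csta and Cstb were not used here. Each line gives the 120 bases directly before the start, 5′ to 3′ on the gene's strand. Capitals mark CACGTG in Ctsd, Ctsf and Ctsa and TATAAA in Cts3 and Ctsm, and Cst3 holds neither.
Ctsd, chr7:142387828-142387947 (-): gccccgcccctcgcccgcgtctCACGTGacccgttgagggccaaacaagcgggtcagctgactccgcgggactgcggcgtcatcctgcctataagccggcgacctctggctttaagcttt
Ctsf, chr19:4855045-4855164 (+): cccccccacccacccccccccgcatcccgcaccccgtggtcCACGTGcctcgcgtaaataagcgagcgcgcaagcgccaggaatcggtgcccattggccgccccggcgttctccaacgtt
Ctsa, chr2:164833653-164833772 (+): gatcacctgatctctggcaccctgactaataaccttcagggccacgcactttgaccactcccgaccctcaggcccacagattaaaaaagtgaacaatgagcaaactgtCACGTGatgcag
Cst3, chr2:148875513-148875632 (-): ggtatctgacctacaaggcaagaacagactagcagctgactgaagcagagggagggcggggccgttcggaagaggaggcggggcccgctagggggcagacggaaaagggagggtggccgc
Cts3, chr13:61570128-61570247 (-): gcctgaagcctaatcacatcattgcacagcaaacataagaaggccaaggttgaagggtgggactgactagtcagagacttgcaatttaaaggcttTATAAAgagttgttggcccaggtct
Ctsm, chr13:61541840-61541959 (-): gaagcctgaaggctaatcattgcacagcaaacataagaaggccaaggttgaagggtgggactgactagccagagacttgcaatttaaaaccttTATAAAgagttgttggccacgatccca

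The hexamer CACGTG, which reads the same on both strands, is the core of the element through which TFEB and its relatives are known to drive lysosomal genes. It was found in 4 of the 12 promoters of members averaging 1 RPKM or more, and in 0 of the 15 promoters of members below that. Ctsd held 2 copies, 245 and 98 bases before the start, the nearer of which is in the printed window. Ctsl held 1 copy 236 bases before its start, Ctsf 1 copy at 79 bases, and the second of 2 annotated Ctsa starts 1 copy 12 bases before and another from base 6 after it. Among all 32851 promoters of the table, 7.15% hold the hexamer, and among those of genes averaging 1 RPKM or more 9.84% do, against 4.45% for genes listed at 0. At that last share, 0 of 15 is near the background. A match describes the letters only, and no test was made.

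CpG content followed the same division. The ratio of observed to expected CpG had a median of 0.479 (range 0.155 to 0.972) in promoters of members at 1 RPKM or more, and 0.0684 (0 to 0.464) in those below. Ctsd had the highest ratio, 0.972, and Cst3 had 0.581. Cts3, Cts7, Ctsr and Cst13 had no CpG at all. The same contrast holds for the table as a whole, with a median of 0.737 for genes at 1 RPKM or more and 0.179 for genes listed at 0, so it is not particular to these families. Among detected members, Ctsk, whose protein is the collagenase of osteoclasts, had the lowest ratio at 0.155. TATAAA, searched on both strands (TTTATA on the other, which can overlap it), was in 5 of the 15 promoters below 1 RPKM and in 1 of the 12 above, that of Ctss. It is in 13.6% of all promoters, in 7.37% of those of genes averaging 1 RPKM or more and in 26.7% of those of genes listed at 0, so both counts are near the background. The Cts3 and Ctsm windows printed above were identical at 106 of 124 aligned positions (85.5%), against 52.0% for Ctsd and Ctsf.

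In the middle of the range lay the cysteine cathepsins with narrower roles. Ctss, which trims the invariant chain of MHC class II in antigen-presenting cells, was at 49.0 and 70.6 RPKM, a wider gap than in its neighbours in the order. Ctsh, an aminopeptidase, lay at 35.7 and 42.3 RPKM. Ctsk lay at 33.6 and 31.9 RPKM and was the only detected member with the lower value in uterus 2. Ctsc, the dipeptidyl peptidase that activates granule proteases of immune cells, lay at 29.6 and 33.5 RPKM. Ctss and Ctsk are neighbours on chromosome 3, 17.4 kb apart, yet Ctss was 1.46 times Ctsk in uterus 1 and 2.22 times in uterus 2. Down the order Ctsh, Ctsa, Ctsk and Ctsc, each gene overlapped with the next. Ctsh was nevertheless above Ctsa in each uterus, and above both values of Ctsk and of Ctsc. The order of Ctsa and Ctsk, and that of Ctsk and Ctsc, changed between the uteri and was not resolved.

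Ctsf and Ctso, lysosomal cysteine cathepsins, lay lower, at 12.9 and 15.6 RPKM and at 13.1 and 13.5 RPKM, and their ranges overlapped too. Ctsw, known from natural killer and cytotoxic T cells, lay at 5.08 and 5.53 RPKM on 24 and 29 reads. Of 8 marker genes of cytotoxic lymphocytes, 6 were at 1 RPKM or more in both uteri, and the summed level of the list was 23.0 and 22.2 RPKM. Gzma, the only gene of that list at least 2-fold apart, had 13 and 7 reads. The part of these cells in the Ctsw level was not tested. In whole tissue, a low level in many cells and a high level in few cells cannot be told apart, nor can fewer cells of a type and less RNA per cell. Of the 15 pairs of neighbours in the order of mean level, 7 overlapped between their 2 values.

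The serine carboxypeptidase Ctsa, which also protects β-galactosidase and neuraminidase in the lysosome, lay at 30.1 and 38.0 RPKM. The other serine member, Ctsg, a protease of neutrophil granules, was listed at 0 in both uteri. Of 7 neutrophil markers, only S100a8 reached 1 RPKM in both uteri, on 2 reads in each, S100a9 had 1 and 4 reads, and Elane, Ngp and Camp were listed at 0. The summed level of that list was 2.27 and 3.74 RPKM.

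Among cystatins, Cstb (stefin B), an inhibitor of the cytosol and nucleus, was the second detected gene at 40.7 and 48.8 RPKM, or 20.5% and 21.6% of cystatin RPKM. Cst3 was 3.85 and 3.57 times Cstb in RPKM. The third was Cst7, cystatin F of immune cells, which inhibits cathepsin C among others, at 1.32 and 3.10 RPKM on only 5 and 13 reads. Cst7 falls below a threshold of 2 RPKM in uterus 1, which leaves 2 detected cystatins. Csta (stefin A) had 1 read in each uterus, 0.0955 and 0.0860 RPKM. Cst6, known from skin, also had 1 read in each, 0.0660 and 0.0595 RPKM.

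The 8 cathepsins of the placental set (Cts3, Cts6, Cts7, Cts8, Ctsj, Ctsm, Ctsq and Ctsr) lie together on chromosome 13, and Ctsl lies on the same chromosome 2793 kb beyond Cts3. Cts8 had 1 read in each uterus (0.105 and 0.0942 RPKM), and the other 7 were listed at 0. From Ctsj to Ctsl, with both counted, the table lists 31 genes over 3370 kb. Of these, 17 were at a mean of 1 RPKM or more, but none before Zfp808, which lies beyond Cts3. On the outer side, the nearest listed gene is Tpbpa, a trophoblast gene, with 1 read in each uterus. None of 7 trophoblast markers reached 1 RPKM in both uteri. Their summed level was 0.447 and 0.925 RPKM, and Prl3d1, Prl3b1, Prl2c2 and Hand1 were listed at 0.

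The type 2 cystatins show a similar arrangement on chromosome 2. Cstl1, Cst11, Cst12, Cst8, Cst13 and Cst9, several of which are known from testis and epididymis, lie in that order, with 8030411F24Rik (also listed at 0) between Cst11 and Cst12, and were all listed at 0. Cst3, on the minus strand as is Cst11, was the highest cystatin. It is separated from Cst9 by a gap of 33.0 kb that holds 9230104L09Rik, also listed at 0. Cst10, on the other side of Cst3, was listed at 0, and Cst7 lies farther along with the low level given above. The table also lists at 0 the ribosomal protein gene Rpl26 and the proton pump subunit Atp6v0c, which cells in general use, so a 0 in it need not be a count of 0 and was not read as absence of a transcript, for cathepsins or cystatins. Only where a 0 is a count of 0 does depth set an upper limit. For the 15 members at 0 that limit (3 reads over the annotated length) would be 0.524 to 1.43 RPKM in uterus 1 and 0.472 to 1.29 RPKM in uterus 2, and for the short genes Cst9, Cst11, Cst12, Cst13 and Cstl1 it would lie above 1 RPKM in uterus 1.

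**Figure D2:**
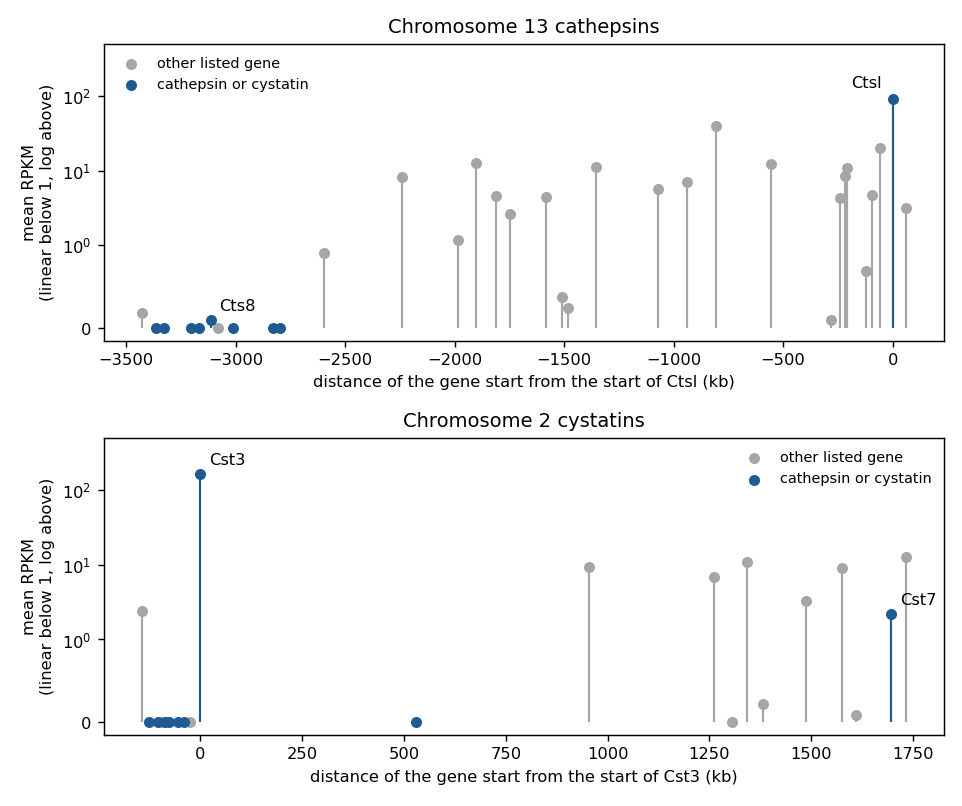
Mean RPKM of each listed gene (linear below 1, log above) against the distance of its start from that of Ctsl on chromosome 13 (top) and Cst3 on chromosome 2 (bottom), members in blue and other listed genes in grey. The placental cathepsins sit at or near 0 at -3364 to -2800.1 kb from Ctsl at 91.7 RPKM, and 6 cystatins at 0 lie before Cst3 at 165 RPKM.

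Sequence sharing between copies was checked, since reads that fit several genes can be lost or split. Of the 34 members, 29 shared no stretch of 50 bases with a coding transcript of another gene. Only Cts3, Ctsm and Cts8 shared over 1% of theirs, with 9.47% of Cts3 and 10.9% of Ctsm stretches held in common with each other and 1.19% of Cts8 stretches found in Zbtb6. Their values are uncertain at least to that extent. The search covered coding transcripts only, so sharing with pseudogenes, such as Cts8-ps among the chromosome 13 cathepsins, was not tested for any member. The read length is not given in the sources used here, so 50 bases is a chosen setting.

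Nearly every detected member was higher in uterus 2, but mostly by little. Of the 16 members averaging 1 RPKM or more, 15 were higher in uterus 2, where 50.1% of all 13647 such genes were. Their median log2 ratio of uterus 2 over uterus 1 was 0.19 on the log2(RPKM + 0.1) scale, which understates the change of low genes, against 0.00067 over all those genes. By fold, only Cst7 was at least 2-fold apart (log2 ratio 1.17), 1 of 16 members beside 2.6% of all genes, and its 5 and 13 reads do not resolve it. The members share the same 2 libraries, so these counts describe 2 animals and not a group difference.

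Whole reads were recovered from the RPKM values, which allows each difference to be set against counting error. An exact binomial test of the reads, adjusted by Benjamini-Hochberg over 15117 genes, called 4 of the 16 members tested (25.0%), beside 4.66% of all genes. All 4 were higher in uterus 2, beside 2.07% of all genes called in that direction. Calls depend on depth: among genes with at least 500 reads in sum the test called 12.5% of 3830, and 4 of 9 members. That share counts both directions. Its floor lies far below the reads of Ctsd (9425 and 11518) and Ctsb (2565 and 3277), so it is not matched to their depth. The test compares 2 libraries and does not cover variation between animals.

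Ctss differed most among the 4. Its reads were 255 and 408, a log2 ratio of read shares of 0.53 (95% counting interval 0.30 to 0.76, adjusted p = 0.000321 in the exact binomial test). Ctsa followed with 419 and 587 reads, a log2 ratio of 0.33 (0.15 to 0.52, adjusted p = 0.010 in the same exact test). Ctsb and Ctsd moved less but rest on far more reads. Ctsb had 2565 and 3277 reads, a log2 ratio of 0.20 (0.13 to 0.28, adjusted p = 1.32e-05, exact). Ctsd had 9425 and 11518 reads, a log2 ratio of 0.14 (0.10 to 0.18, adjusted p = 1.76e-09, exact).

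The other 12 detected members did not pass. For 11 of them the counting interval of the log2 ratio included 0. For Ctse it ran from 0.13 to 1.74 (21 and 44 reads), yet its adjusted p was 0.185 in the exact test. Ctsl (681 and 782 reads) and Ctsz (401 and 459 reads) had intervals of -0.10 to 0.20 and -0.15 to 0.24. Cst3, with 446 and 550 reads, had an interval of -0.03 to 0.33. Cst7 had the widest, -0.35 to 3.07.

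**Figure D3:**
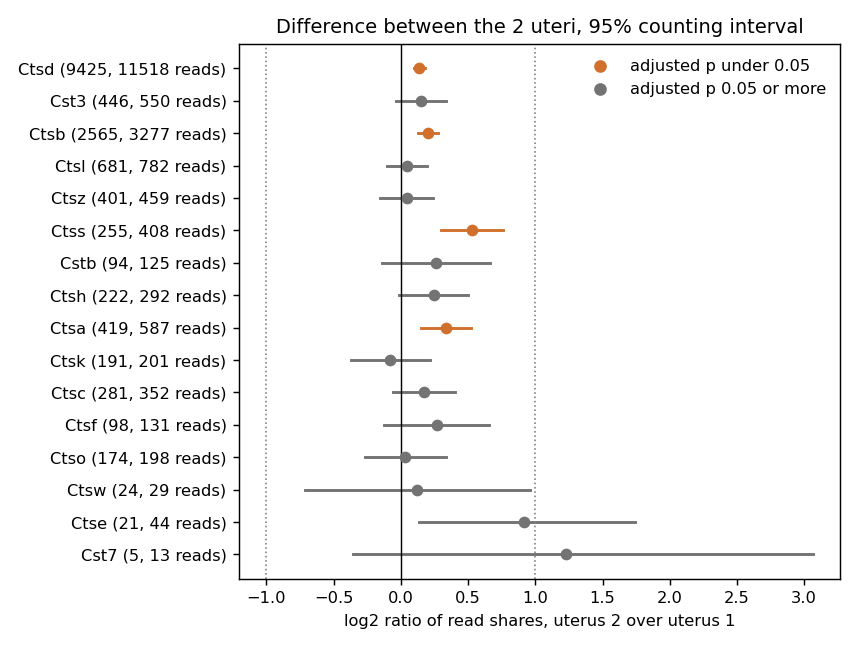
Log2 ratio of read shares, uterus 2 over uterus 1, with its 95% counting interval for the 16 members averaging 1 RPKM or more, and reads in uterus 1 and 2 in each label. Orange marks the 4 members with an adjusted p under 0.05 (Ctsd, Ctsb, Ctss and Ctsa), all right of 0, and dotted lines mark a 2-fold difference.

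Markers of several cell types differed between the same 2 libraries. Macrophages are rich in lysosomes, and of their 7 markers all were at 1 RPKM or more in both uteri and 5 were higher in uterus 2. Their summed level was 417 RPKM in uterus 1 and 469 RPKM in uterus 2. C1qa was the only marker that passed the exact binomial test, at 61.0 and 80.1 RPKM (adjusted p = 0.0235), whereas Emr1 (19.2 and 17.3 RPKM) and Cd68 (15.3 and 14.2 RPKM) were lower in uterus 2 without passing it. Cd74, the invariant chain that Ctss processes, lay at 223 and 307 RPKM, a log2 ratio of 0.46 (adjusted p = 2.05e-15, exact). Markers of other cell types differed in both directions in the exact binomial test. Of stroma, Dcn was higher in uterus 2 (log2 ratio 0.34, adjusted p = 8.53e-25, exact), whereas Col1a1 (-0.48, adjusted p = 4.18e-227, exact) and Col1a2 (-0.20, adjusted p = 1.75e-41, exact) were lower. Of smooth muscle, Myh11 was higher (0.16, adjusted p = 1.40e-10, exact) and Acta2 lower (-0.14, adjusted p = 2.35e-06, exact). Krt18 of epithelium was higher (0.42, adjusted p = 0.000765, exact), and Pgr of the uterine list was lower (-0.22, adjusted p = 6.70e-05, exact). The part of any of these cell types in the higher cathepsin values was not tested.

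Other inhibitors of cathepsins were far from uniform. Ctla2a, which encodes a protein related to the propeptide of cathepsin L that inhibits cathepsin L-like enzymes, lay at 1365 and 1629 RPKM on 7298 and 9662 reads. It was 8.71 and 9.35 times Cst3 and 15.2 and 17.5 times Ctsl in RPKM, and above Ctsd in both uteri. Its close relative Ctla2b lay at 14.6 and 11.5 RPKM on only 64 and 56 reads. Of Ctla2a stretches of 50 bases, 8.46% occur in another gene's transcripts, mostly in Ctla2b. Of Ctla2b stretches, 7.47% are shared, mostly with Ctla2a. The division of reads between them is therefore uncertain, and far more so for Ctla2b, since Ctla2a has many more reads. How many Ctla2b reads came from Ctla2a was not tested. Ctla2a was also higher in uterus 2 (log2 ratio 0.25, adjusted p = 8.38e-27, exact). Serpinb6a, a serpin, lay at 49.7 ± 1.89 RPKM (SD, n = 2), and Serpina3g at 3.64 and 3.75 RPKM on 7 and 8 reads. Of the 16 genes of this list, Ctla2a, Cd74, Serpinb6a, Ctla2b and Serpina3g were at 1 RPKM or more in both uteri.

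The rest of that list was near or at 0. Kng1, Kng2 and Fetub, which encode cystatin-domain proteins of blood plasma, had at most 3 reads in a uterus. Ahsg and Hrg, of the same superfamily, were listed at 0. So were the stefins Stfa1, Stfa2, Stfa2l1, Stfa3, BC100530 and BC117090. Some stefins share much sequence (37.7% of Stfa1 stretches of 50 bases occur in another gene's transcripts, mostly in BC100530), so their zeros are less certain than those of other genes.

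Most lysosomal genes outside the 2 families were detected. All 27 other lysosomal hydrolases and activators were at 1 RPKM or more in both uteri, with a median of 20.1 RPKM in each, with Psap at 326 and 337 RPKM and Npc2 at 52.1 and 58.1 RPKM. Ctsd thus lay above each of them. Among further proteases, 7 of 9 were detected, with Lgmn, the asparaginyl endopeptidase that processes cathepsins, highest at 70.1 and 83.9 RPKM, followed by Scpep1 (45.4 and 45.7 RPKM) and Prcp (29.7 and 28.1 RPKM). Lysosomal membrane genes were detected in 11 of 12 cases, led by Lamp1 (127 and 138 RPKM), Cd63 (145 and 107 RPKM) and Lamp2 (121 and 126 RPKM). The proton pump list, which serves the low pH that activates cathepsins, had 13 of 16 genes detected and a median of 31.9 and 36.0 RPKM, led by Atp6v1g1, Atp6v1f and Atp6ap1 at 86.9, 53.9 and 51.2 RPKM on average.

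**Figure D4:**
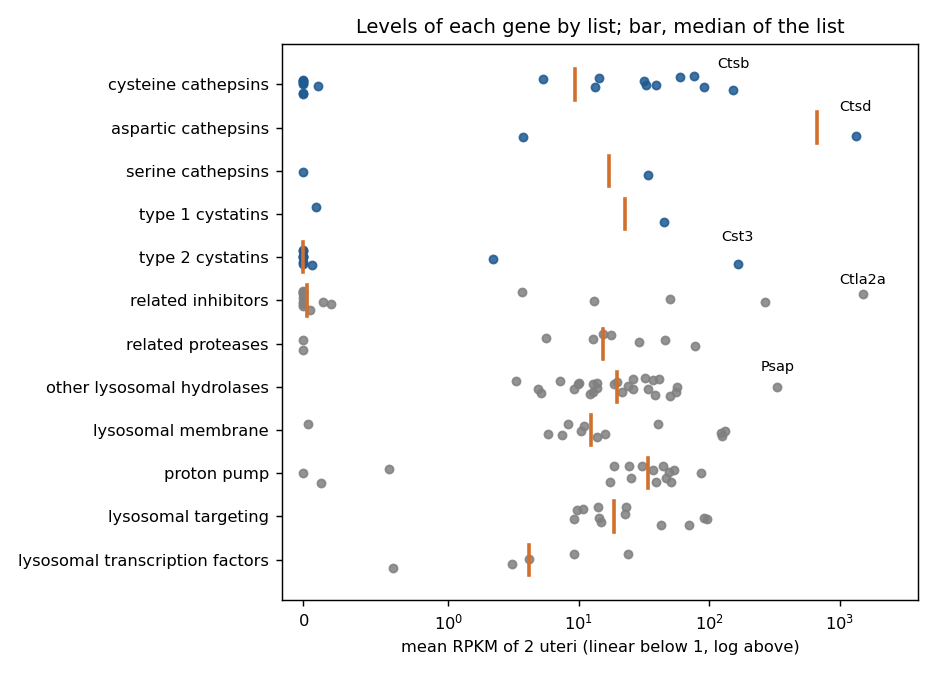
Mean RPKM of each gene (linear below 1, log above) for the cathepsin and cystatin classes (blue) and the lists of related inhibitors, related proteases and lysosomal genes (grey), without the cell type markers, with an orange bar at the median of each list. Ctsd at 1321 RPKM and Ctla2a at 1497 RPKM are the highest genes of these lists, while 7 of 10 type 2 cystatins and 8 of 16 related inhibitors lie at 0.

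Receptors and enzymes that carry cathepsins to the lysosome were all detected (12 of 12). The endocytic receptors Lrp2 (87.7 and 104.6 RPKM) and Lrp1 (96.2 and 84.5 RPKM) led, followed by the mannose 6-phosphate receptor gene M6pr at 65.0 and 74.0 RPKM. Among the transcription factors of lysosomal genes, Zkscan3, described as a repressor, was highest at 21.1 and 26.5 RPKM, followed by Tfe3 at 8.83 and 9.57 RPKM and Mitf at 3.88 and 4.45 RPKM.

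Across these lists the direction between the uteri was mixed. Of hydrolases, 16 of 27 were higher in uterus 2 (median log2 ratio 0.05), and of lysosomal membrane genes averaging 1 RPKM or more 5 of 11 (median -0.01). The exact binomial test called 1 of the 11 membrane genes, Cd63, which was lower in uterus 2 (adjusted p = 6.01e-05). Whether the members differ from these lists was not tested.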

How the data were processed

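RNA of the whole uterus of 2 mice was extracted with Trizol and selected by poly-A, and the authors normalized each gene to RPKM, per the series' design text. The submitters' processing notes list TopHat, edgeR and build mm9 without roles or versions. The counter, annotation, strand use and read length are not given in the sources used here. The deposited RPKM tables hold the same values for shared genes. Starts were read as counted from 0, and coordinates are printed from 1.

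The lowest RPKM of single-exon genes gave library scaling totals of 3834174 and 4256101, and all 297 and 300 such values above 0 were whole reads (tolerance 1e-06). For every other gene, the simplest fractions within 1e-10 gave reads and a length, and their common factor was set from GENCODE M1 transcript lengths, with a penalty on large factors. For 13 of 19 members with reads the length equalled an annotated one, for 18 it was within 6 bases, and for Ctsa it was 325 bases off. Cst3 was given factor 2 and Ctso 3. Recovered reads summed to 3784917 and 4206869.

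Ratios used a pseudocount of 0.1 RPKM and genes averaging 1 RPKM or more. The two-sided exact binomial test (scipy 1.17.1) took genes with at least 6 reads in sum, adjusted over all of them, and was checked on simulated data. The series' design text names 2 independent animals, and 1 group allows no test between conditions. Members averaging 1 RPKM or more were named with both values, related inhibitors were all named, and of each other list the 3 highest and any gene 2-fold apart; other genes were named after their values were seen. Members and lists were chosen with earlier results of these data known. Protein sequences were not used here, and some genes that this rule names are not reported here.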

Additional observations from a re-analysis of the deposited data

How the results depend on the processing

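The count of detected cathepsins was 13 under all 6 alternatives (thresholds of 0.5 and 2 RPKM, more than 3 reads, TPM, either library alone), and that of cystatins was 3 except at 2 RPKM, which gave 2. TPM changes the unit and gave sums of 4436 for cathepsins and 503 for cystatins, with the same ratio. The summed cathepsin level was 553 RPKM without Ctsd. The cathepsin to cystatin ratio was 2.43 for cysteine cathepsins only and 2.60 without Ctsd. The alternatives without Ctsd were added after the data were seen, as was the count among genes with at least 500 reads. The median log2 ratio was 0.189 and 0.185 with pseudocounts of 0.01 and 1, 0.152 without a filter, 0.163 from a mean of 5 RPKM and 0.183 on the TPM scale. No member was 2-fold apart with a pseudocount of 1 or from a mean of 5 RPKM (0 in each), against 1. The exact test called the same 4 members with the smallest possible reads, centred totals or at least 20 reads, and no member's adjusted p changed side in 47 recomputations. No paired analysis was possible because the 2 libraries form a single group. With 2 libraries, depth limits genes under about 20 reads, such as Cst7.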
